A study of Rattus norvegicus with 21 samples.

Results

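The insulin-like growth factor binding proteins (Igfbp genes) were followed in RNA of rat spinal cord. Every probe annotated with the symbol Igfbp and a number was taken, which gave 5 probes of 4 genes among 4148 measured genes with 1 symbol: Igfbp2, Igfbp6, Igfbp3 and, on 2 probes, Igfbp5. Igfbp2 and Igfbp6 were chosen as leading members on their measured ratios in these arrays, so their values are given as a description, without a test. Of the 7 Igfbp genes in RefSeq, Igfbp1, Igfbp4 and Igfbp7 were not analysed here. Of 105 possible values of the 5 probes, 101 were measured.

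The study holds 21 arrays with 2 RNAs each, in 7 groups of 3. NS398 and indomethacin (Indo) cultures were set against pooled cultures given DMSO and ethanol. Acetaminophen (Acet), MP and CKIN cultures were set against pooled PBS cultures, as were single PBS cultures, which form the Injured 4 hr group, and cord taken straight after dissection, the Uninjured group. All cultures were kept for 4 hr, and all groups other than Uninjured are therefore cultured cord. Strain, age, sex and dose are not stated in the labels used here. The labels do not spell out MP or CKIN. From knowledge of the field they are read as methylprednisolone, a synthetic glucocorticoid, and cytokine inhibitors. NS398 inhibits cyclooxygenase 2 selectively, indomethacin inhibits both cyclooxygenases, and acetaminophen is an analgesic. A cultured piece of cord has no blood flow and receives no cells from the circulation, which limits it as a model of injury in the animal. The labels do not say whether replicates are separate animals. Each p-value therefore covers no more than the variation among these arrays, which may be technical.

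Igfbp proteins are secreted carriers that hold the growth factors Igf1 and Igf2 with high affinity. They lengthen the life of these ligands, keep them from their receptor or bring them to it, and release them when proteases cut the carrier. In nervous tissue Igf1 supports neurons and the formation of myelin, Igfbp2 is made by meninges, choroid plexus and astrocytes and is found in cerebrospinal fluid, and Igfbp6 binds Igf2 in preference to Igf1. Igfbp3 is the main carrier in blood serum, and Igfbp5 binds extracellular matrix.

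In the GRCr8 assembly of RefSeq, Igfbp2 lies at chr9:81864811-81892179 and Igfbp5 at chr9:81901605-81914187. They are neighbours on opposite strands, with 9425 bp between them. Igfbp6 lies at chr7:135154919-135159550 and Igfbp3 at chr14:86270208-86277944, where 3863 bp part it from Igfbp1. The 250 bases before the start of 3 of these genes are printed because Igfbp2 and Igfbp6 are the leading members, and Igfbp5 is the neighbour of Igfbp2 that went the other way with NS398. Capitals mark a match to a searched motif, and each line reads 5′ to 3′ on the gene's strand.
Igfbp2 (chr9:81864561-81864810, plus strand): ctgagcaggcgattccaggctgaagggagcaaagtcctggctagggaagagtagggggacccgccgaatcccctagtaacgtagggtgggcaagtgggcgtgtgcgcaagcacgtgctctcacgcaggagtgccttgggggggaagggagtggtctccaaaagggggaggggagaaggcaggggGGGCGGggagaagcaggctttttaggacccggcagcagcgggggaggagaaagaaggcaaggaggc
Igfbp6 (chr7:135154669-135154918, plus strand): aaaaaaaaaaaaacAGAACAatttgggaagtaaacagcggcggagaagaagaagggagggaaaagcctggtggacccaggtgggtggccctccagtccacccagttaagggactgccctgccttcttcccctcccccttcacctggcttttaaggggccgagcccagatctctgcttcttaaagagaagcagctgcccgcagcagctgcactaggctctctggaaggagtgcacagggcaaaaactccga
Igfbp5 (chr9:81914188-81914437, minus strand): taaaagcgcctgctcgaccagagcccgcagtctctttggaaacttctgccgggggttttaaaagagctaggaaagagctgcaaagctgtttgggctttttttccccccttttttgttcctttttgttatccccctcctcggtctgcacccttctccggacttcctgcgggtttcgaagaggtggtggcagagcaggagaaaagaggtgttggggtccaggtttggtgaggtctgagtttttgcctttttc

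The motifs searched on both strands were the TATA box (TATAAA), the GC box (GGGCGG), the CCAAT box (CCAAT), the AP-1 site (TGANTCA) and a short glucocorticoid receptor motif (AGAACA). Igfbp2 held 1 GC box, starting at position -66 from the gene's start, a motif found in 30.5% of 33469 rat promoters of the same length. Igfbp6 held 1 glucocorticoid receptor motif, starting at position -236 from its start, as 17.5% of promoters do. No match to these letters lay in the windows of Igfbp5 or Igfbp3, where the shares over all promoters were 12.9% for the TATA box, 34% for the CCAAT box and 6.34% for the AP-1 site. The Igfbp2 window had 64% G and C, the Igfbp6 window 54.8% and the Igfbp5 window 51.6%, beside a median of 51.2% over all promoters. A match is a run of letters and says nothing of whether a factor was bound.

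Values are log2 ratios of a sample to its pool, less the median of all probes on that array, so that 0 is a probe at the array's median and 1 is a doubling relative to it. A positive value is read as more RNA in the sample than in its pool, from the order in which titles name the RNAs. The files do not state this direction. Deposited array medians lay between -1.63 and 0.69 on the 15 treatment arrays, against -4.13 to -2.13 on the 6 Injured 4 hr and Uninjured arrays. Exact ratios of small whole numbers made up 8.08% to 13.2% of values on the treatment arrays, against 0.32% to 1.21% on the other 6. This difference in handling coincides with every comparison of a treatment with Injured 4 hr and cannot be told apart from treatment there. Of the 15 treatment arrays, 10 lacked more than 1100 spots, including all CKIN and Indo arrays, while none of the other 6 did. Ratios of cord to a pool of cultured cord cannot test the identity of the tissue. The median of 11 probes of neuronal genes lay between 1.56 and 1.65 on the Injured 4 hr arrays, against 3.2 to 3.69 on the Uninjured arrays, and that of 8 probes of oligodendrocyte genes between 1.77 and 2.09, against 2.76 to 2.84. Yet Injured 4 hr was set against a pool of like cultures, and 10 of 11 neuronal and 8 of 8 oligodendrocyte probes passed as higher. Of all probes 22.1% passed in that comparison, with 1020 of 1073 calls higher. The SD of all values was 1.43 to 1.51 on Uninjured arrays and 0.79 to 0.82 on Injured 4 hr arrays. These levels are therefore not read as content of neuronal or oligodendrocyte RNA.

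Igfbp2 was the member with the widest range between groups: it was among the highest ratios on the NS398 arrays and below the array median on all Acet arrays. It stood at 2.15, 2.12 and 2.71 in the 3 NS398 cultures, above 99.2% of the probes on each of those arrays. That is 2.33 ± 0.33 (SD, n = 3) over the DMSO pool, a 5.02-fold ratio. Injured 4 hr cultures set against their own PBS pool, like against like, also had Igfbp2 above the array median, at 1.40 ± 0.26 (SD, n = 3), a 2.65-fold ratio. In Indo cultures it was 1.17, 0.91 and -0.38, so 1 of the 3 lay below the array median.

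In Acet cultures Igfbp2 was -2.37, -0.36 and -0.71, against 1.20, 1.69 and 1.33 in Injured 4 hr cultures. The groups did not overlap. How many of all probes were likewise without overlap was not counted, so lack of overlap, here and below, is only a description. The difference was -2.55 ± 0.54 (SE), which is 5.85-fold lower in Acet. Against the PBS pool alone Acet lay at -1.15 ± 0.38 (SE), and the rest of the difference is the 1.40 ± 0.38 of Injured 4 hr over that pool. MP cultures gave 0.44, 1.94 and -0.55, a spread wider than the distance to Injured 4 hr. The second MP array, the highest, was above every Injured 4 hr array, and the difference of means was -0.79 ± 0.54. CKIN cultures gave 0.54 and 0.09 on the 2 arrays with a value, both below every Injured 4 hr array, with a difference of -1.09 ± 0.60, although against the PBS pool alone CKIN lay above 0, at 0.31. Between Injured 4 hr, with the values above, and Uninjured cord, at 2.48, 2.26 and 2.18, the difference was -0.90 ± 0.54, again without overlap.

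Among the 5 groups measured against the PBS pool, mean Igfbp2 was lowest in Acet at -1.15 ± 1.07, followed by CKIN at 0.31 ± 0.32 (n = 2), MP at 0.61 ± 1.25, Injured 4 hr at 1.40 ± 0.26 and Uninjured at 2.31 ± 0.15 (SD, n = 3 otherwise). The neighbours CKIN and MP overlapped, as did MP and Injured 4 hr. Acet lay below both CKIN arrays, at -1.15 against 0.31. In whole tissue, fewer cells of a type and less RNA per cell cannot be told apart.

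**Figure D1:**
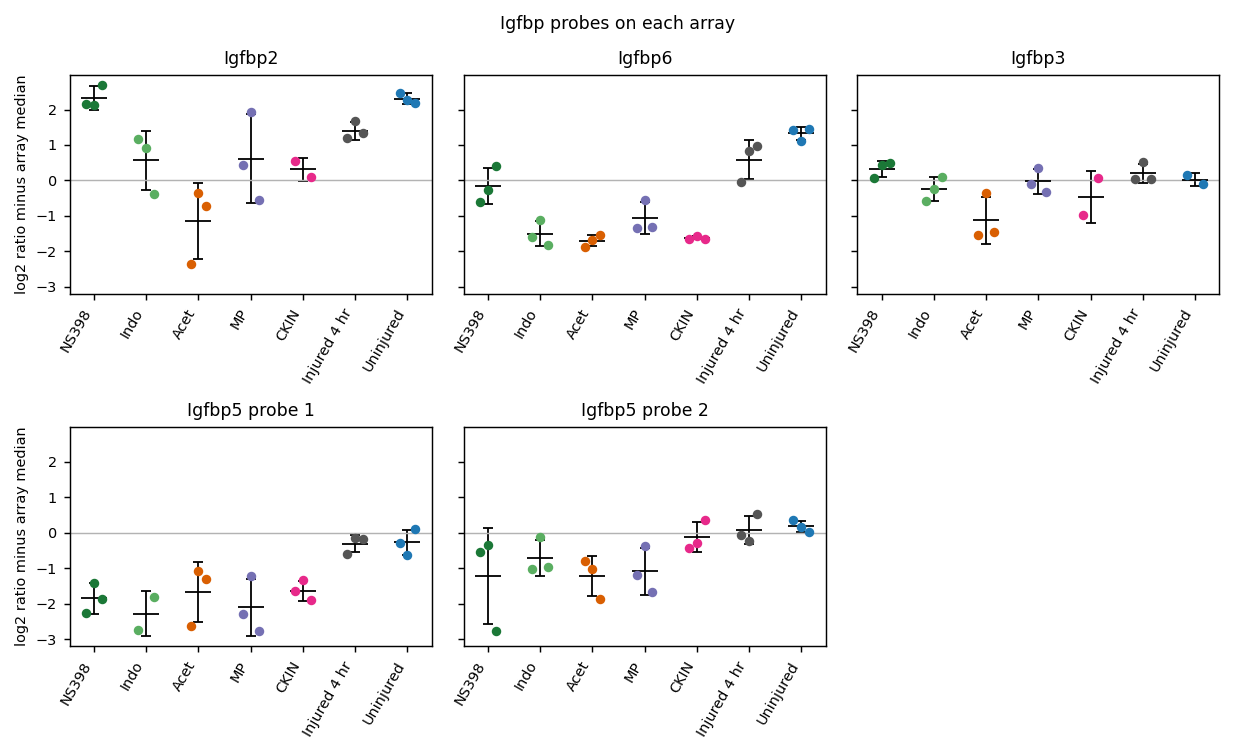
Log2 ratio minus the array median (y axis) of the 5 Igfbp probes on each array, by group (x axis); points are arrays, the bar is the mean and the whiskers are 1 SD. Igfbp2 lies above 2 on all NS398 arrays and below 0 on all Acet arrays, Igfbp6 lies below -1.5 on all Acet and CKIN arrays, and Igfbp5 probe 1 lies below -1 on every measured treatment array.

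Igfbp6 was low in every treatment other than NS398. Acet cultures held it at -1.88, -1.67 and -1.55 and CKIN cultures at -1.64, -1.57 and -1.64, against -0.05, 0.83 and 0.98 in Injured 4 hr cultures. Neither treatment overlapped with Injured 4 hr. The differences were -2.28 ± 0.34 for Acet and -2.20 ± 0.35 for CKIN, or 4.86-fold and 4.60-fold lower. Of each difference, 0.58 ± 0.24 (SE) is that of Injured 4 hr over its own PBS pool. The CKIN arrays varied by an SD of only 0.04 and the Acet arrays by 0.16, against 0.56 in Injured 4 hr.

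In MP cultures Igfbp6 was -1.34, -0.55 and -1.31, all below the Injured 4 hr values above, with a difference of -1.65 ± 0.35. Indo cultures gave -1.59, -1.11 and -1.81, a mean of -1.51 ± 0.36 (SD, n = 3) relative to the ethanol pool. NS398 cultures gave -0.62, -0.26 and 0.39, a mean of -0.16 ± 0.51 (SD, n = 3), on both sides of the array median. Over all treatments 14 of 15 arrays lay below the array median. On the Injured 4 hr and Uninjured arrays 1 of 6 did. These sets of arrays also differed in handling, and how many of all probes show the same step was not counted. Injured 4 hr differed from Uninjured, at 1.41, 1.12 and 1.45, by -0.74 ± 0.34, and the groups did not overlap.

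Igfbp3, the serum carrier, was close to the array median in most groups and lower in Acet. Acet cultures held it at -1.55, -0.36 and -1.45, against 0.04, 0.51 and 0.04 in Injured 4 hr cultures. The groups did not overlap, yet the difference of -1.32 ± 0.37 (95% interval -2.10 to -0.55) missed the threshold over all probes (limma adjusted p = 0.0746). CKIN differed from Injured 4 hr by -0.66 ± 0.42 (CKIN measured on 2 arrays; limma adjusted p = 0.281) and MP by -0.22 ± 0.37 (adjusted p = 0.799). MP exceeded Acet by 1.10 ± 0.38 (95% interval 0.32 to 1.88; limma adjusted p = 0.546). In NS398 cultures Igfbp3 was 0.07, 0.42 and 0.48, a mean of 0.32 ± 0.22 (SD, n = 3) that did not pass against the pool (limma adjusted p = 0.416). Indo cultures, at -0.57, -0.25 and 0.11, averaged -0.24 ± 0.34 (SD, n = 3; limma adjusted p = 0.63). Injured 4 hr and Uninjured cord, with Uninjured measured on 2 arrays at 0.16 and -0.11, differed by 0.18 ± 0.41 (limma adjusted p = 0.803).

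The 2 probes of Igfbp5 were unlike in level and are given apart. Probe 1 lay below the array median on 14 of 14 measured treatment arrays, between -2.78 and -1.07. On the Injured 4 hr and Uninjured arrays 5 of 6 did, with values from -0.62 to 0.10. These sets of arrays also differed in handling, and how many of all probes show the same step was not counted. MP cultures gave -2.30, -1.23 and -2.78, against -0.60, -0.16 and -0.17 in Injured 4 hr cultures, without overlap, and the probe fell by 1.80 ± 0.44 (log2; limma adjusted p = 0.0325). In CKIN cultures it was -1.65, -1.34 and -1.91, a fall by 1.32 ± 0.44 (limma adjusted p = 0.0382). Acet cultures, at -2.64, -1.07 and -1.30, also lay below all Injured 4 hr arrays, but the difference of -1.36 ± 0.44 did not pass (limma adjusted p = 0.123). Relative to its pool the probe fell in NS398, at -2.27, -1.42 and -1.88, with a mean of -1.85 ± 0.31 (SE; limma adjusted p = 0.000276). In Indo it fell on the 2 measured arrays, with a mean of -2.28 ± 0.38 (SE; limma adjusted p = 0.000215). It did not differ between Injured 4 hr and Uninjured beyond its error, at -0.03 ± 0.43 (95% interval -0.94 to 0.87; limma adjusted p = 0.965). The MP call held only without MP replicate 2, at -2.24, and ended when any other compared array was left out, at -1.94 to -1.46. The CKIN call likewise held only without CKIN replicate 2, at -1.47, and ended in the other omissions, at -1.47 to -1.19.

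Igfbp5 probe 2 passed in NS398 alone among the 6 comparisons with a vehicle culture or fresh cord, although its direction was down in each treatment. NS398 cultures held it at -0.53, -0.36 and -2.78, and it fell by 1.22 ± 0.35 (limma adjusted p = 0.017). This call rested on NS398 replicate 3: without it the value was -0.45 and did not pass. Indo cultures gave -1.02, -0.12 and -0.97 (-0.70 ± 0.35; limma adjusted p = 0.21). The difference from Injured 4 hr, at -0.05, -0.23 and 0.52, was -1.31 ± 0.50 in Acet (limma adjusted p = 0.206), -1.17 ± 0.50 in MP (adjusted p = 0.225) and -0.20 ± 0.50 in CKIN (adjusted p = 0.816). Acet and MP arrays all lay below the Injured 4 hr arrays, whereas CKIN arrays, at -0.44, -0.28 and 0.35, overlapped them.

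**Figure D2:**
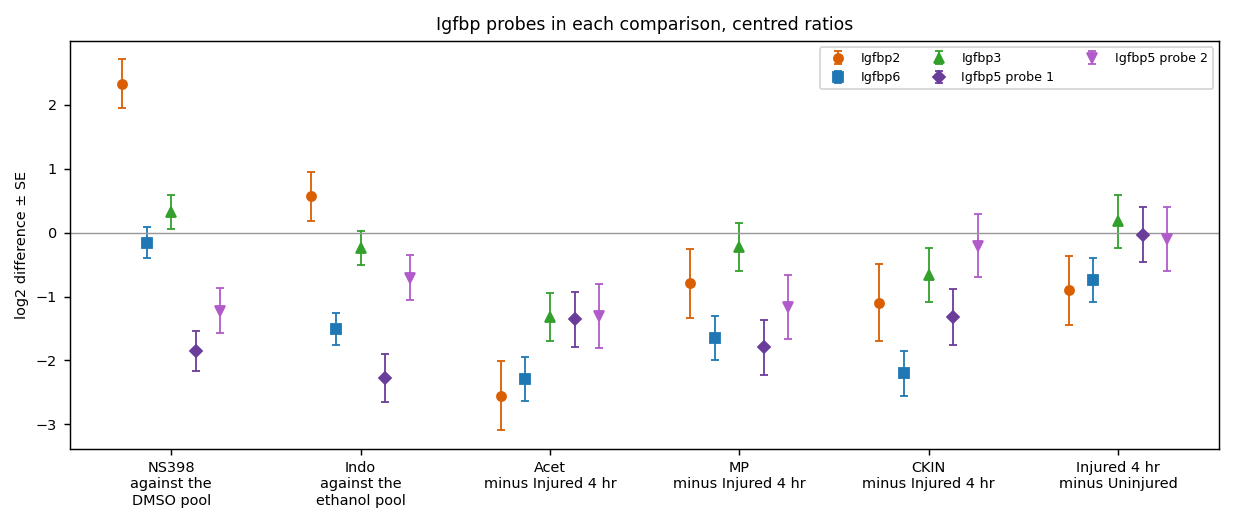
Log2 differences of the 5 Igfbp probes (y axis, ± SE of the linear model) in 6 comparisons (x axis). Igfbp2 is the probe that lies far above 0 in NS398, at 2.33, and lowest in Acet, at -2.55, while Igfbp6 lies between -2.28 and -1.51 in Acet, MP, CKIN and Indo.

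The counts of Igfbp probes past an adjusted p of 0.05 include Igfbp2 and Igfbp6, on whose values the family was chosen, and nothing is read from them. In NS398 against its pool 3 of 5 passed, where 22% of all tested probes did. In Indo 2 of 5 passed (13.3% of all probes). Against Injured 4 hr, 2 of 5 passed in Acet (1.31% of all probes), in MP (2.05%) and in CKIN (20%). Most of the calls over all probes were lower there: 57 of 62 in Acet, 88 of 90 in MP and 693 of 748 in CKIN. A lower value in these comparisons is thus the direction of most calls on the arrays. Of the calls in Injured 4 hr against Uninjured, 651 of 690 were lower, and against the PBS pool 1020 of 1073 were higher. For Injured 4 hr against Uninjured 0 of 5 passed in limma, with 1 at an unadjusted p under 0.05, where 14.3% of all probes passed. Set against their own PBS pool, where like RNA meets like, Injured 4 hr arrays passed for 1 of 5 probes. Of all probes 22.1% passed there, a background of any test against a pool. Between treatments 0 of 5 passed for CKIN against Acet (0.16% of all probes), MP against Acet (0.0228%) and CKIN against MP (0% of 3633 probes; 552 at an unadjusted p under 0.05). At an unadjusted p under 0.05 those counts were 2, 2 and 0 of 5. CKIN, MP and Acet share the Injured 4 hr arrays.

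The direction of several differences rested on how the arrays were scaled. In deposited ratios the median of all probes moves by 1.64 between Acet and Injured 4 hr, 1.67 for MP, 1.54 for CKIN and 1.47 for Injured 4 hr against Uninjured. Igfbp2 in NS398 stayed above 0 under all 6 scalings, between 0.96 and 2.41, and Igfbp6 in Indo stayed below 0, between -2.46 and -1.16. Igfbp2 in Acet stayed below Injured 4 hr, between -3.11 and -0.62, and Igfbp6 likewise, between -2.48 and -0.35, with the smallest sizes in deposited ratios. Igfbp6 in CKIN shrank in deposited ratios, with means of -1.895 in CKIN and -1.62 in Injured 4 hr. Igfbp6 in MP turned to 0.33 in deposited ratios and Igfbp2 in MP to 1.19. Igfbp2 in CKIN turned to 0.79 in deposited ratios and to 0.028 on Gapdh. Its sign also turned without a change of scaling, to 0.27 with sparse arrays as a covariate. Against the PBS pool, a different contrast that leaves out Injured 4 hr, Igfbp2 in CKIN lay at 0.31. In MP Igfbp2 was 0.12 with that covariate and 0.61 against the pool. Between Injured 4 hr and Uninjured the sign of Igfbp2 turned under each scaling other than the array median, at 0.11 to 0.82, and Igfbp6 ran from 0.00 to 0.98 there. Igfbp5 probe 1 turned to 0.60 in CKIN and 0.19 in MP in deposited ratios, but stayed below 0 in NS398, between -3.22 and -1.30, and in Indo, between -3.18 and -1.41.

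**Figure D3:**
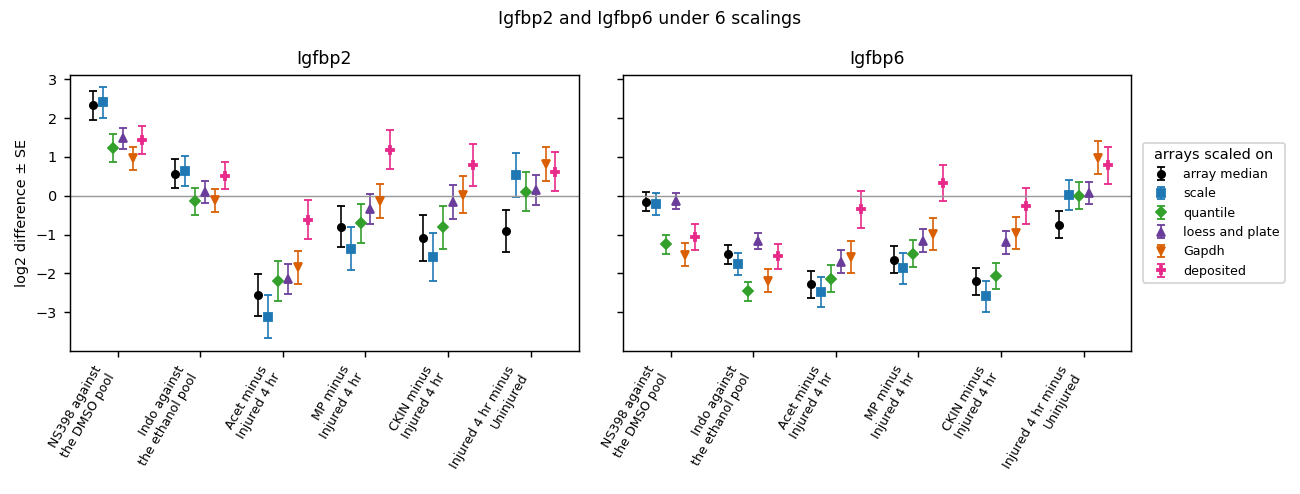
Log2 differences of Igfbp2 and Igfbp6 (y axis, ± SE) in 6 comparisons (x axis) under 6 scalings of the arrays (markers). Igfbp2 in NS398 lies above 0 under each scaling, Igfbp2 and Igfbp6 in Acet below 0 under each, and Injured 4 hr minus Uninjured lies below 0 for Igfbp2 only with arrays on their median.

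Of the ligands and receptors that the carriers serve, 6 of 9 listed genes were on the array. In the 4 comparisons among PBS groups 1 probe passed, Igf1 in CKIN. Igf1, the ligand of neuron and myelin support, was -0.18, 0.19 and 0.68 in CKIN cultures, against 1.66, 1.86 and 1.96 in Injured 4 hr cultures. It fell by 1.60 ± 0.49 (log2; limma adjusted p = 0.0275), where 1 of 4 tested probes of the list passed and its median was -0.29, beside -0.38 over all probes. Of all probes 20% passed there. The Igf1 call ended without CKIN replicate 1 or any Injured 4 hr replicate, and its sign turned in deposited ratios, at 0.33, and after loess correction, at 0.34. In NS398 cultures Igf1 was 0.10, 1.38 and 1.92, and rose by 1.13 ± 0.35 (limma adjusted p = 0.0232). That call ended without NS398 replicate 2 or 3, and on Gapdh the value was -0.23. In Injured 4 hr against its own PBS pool, like against like, Igf1 was 1.83 ± 0.35 (limma adjusted p = 0.000409).

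Igf2, the ligand that Igfbp6 prefers, had 2 probes. Probe 2 fell in Indo, at -1.25, -1.08 and -1.40, by 1.24 ± 0.22 (limma adjusted p = 0.000334). In Injured 4 hr against its own pool the same probe also passed, at -0.71 ± 0.21 (limma adjusted p = 0.015). It was -1.49, -0.90 and -0.59 in Acet, -1.46, -1.33 and -1.42 in MP and -1.05, -1.14 and -1.71 in CKIN, against -0.59, -1.02 and -0.53 in Injured 4 hr, and none of the 3 differences passed (limma adjusted p = 0.761, 0.249 and 0.185). Igf2 probe 1 had no value in CKIN and passed in none of its comparisons. Igf2r, which clears Igf2, did not pass in Acet (-0.40 ± 0.31; limma adjusted p = 0.64), MP (0.32 ± 0.32; adjusted p = 0.635) or Injured 4 hr against Uninjured (0.57 ± 0.31; adjusted p = 0.236). Igf1r was not analysed here.

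**Figure D4:**
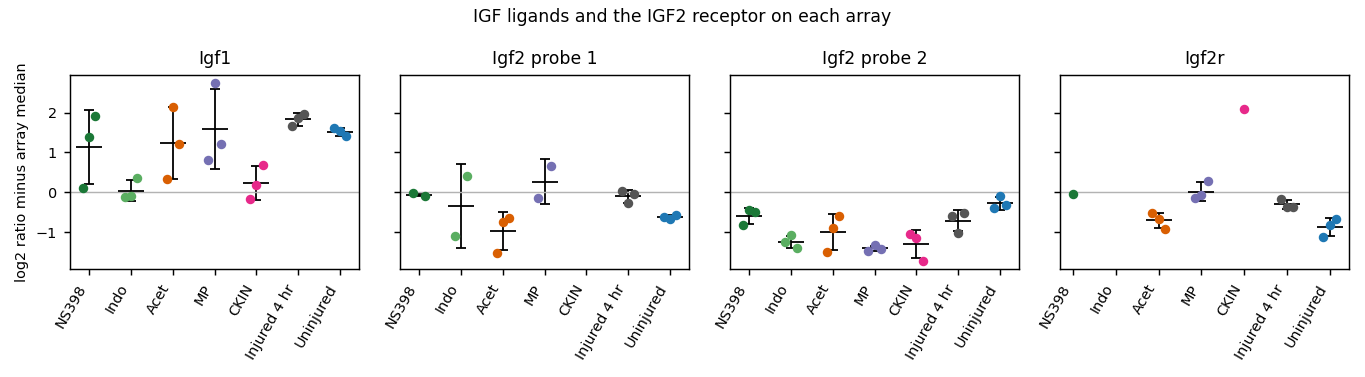
Log2 ratio minus the array median (y axis) of the Igf1, Igf2 and Igf2r probes on each array, by group (x axis); points are arrays, the bar is the mean and the whiskers are 1 SD. Igf1 lies between -0.18 and 0.68 in CKIN and between 1.66 and 1.96 in Injured 4 hr.

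Proteases that cut Igfbp proteins, with their inhibitors, counted 15 of 24 listed genes on the array. In Acet 2 of 15 tested probes were lower than in Injured 4 hr, where 1.31% of all probes passed. Timp1, an inhibitor of matrix metalloproteases, fell by 2.18 ± 0.46 (limma adjusted p = 0.0263). Plau, the urokinase that activates plasminogen, fell by 1.45 ± 0.35 (limma adjusted p = 0.0442). Both Acet calls ended when any compared array other than Acet replicate 2 was left out. In CKIN 4 of 12 fell, where 20% of all probes passed. These were Timp1 by 2.04 ± 0.46, the serine protease Htra1 by 1.37 ± 0.36, Timp2 by 1.17 ± 0.38 and Plau by 1.10 ± 0.36 (limma adjusted p between 0.0071 and 0.0372). In MP 0 of 15 passed, where 2.05% of all probes did. In Injured 4 hr 3 of 15 were lower than in Uninjured, where 14.3% of all probes passed. These were Timp2 at -2.13 ± 0.38, Htra1 at -2.06 ± 0.35 and the lysosomal protease Ctsd at -1.81 ± 0.44 (limma adjusted p between 0.000536 and 0.00805). List medians were -0.32 in Acet, -0.69 in CKIN, -0.39 in MP and 0.25 in Injured 4 hr against Uninjured, beside -0.21, -0.38, -0.27 and -0.04 over all probes. In NS398 4 rose and 1 fell of 13 (22% of all probes passed), and in Indo 1 rose and 1 fell of 14 (13.3%). Plau was the probe that fell in both, at -2.1 ± 0.25 in NS398 and -0.98 ± 0.25 in Indo (limma adjusted p = 1.1e-05 and 0.00952). Timp1 and Htra1 rose in NS398, by 0.99 ± 0.33 and 0.8 ± 0.25 (limma adjusted p = 0.0344 and 0.0261). In Indo neither passed, at -0.86 and 0.46. Of the CKIN calls, that of Timp1 held with each array left out, while those of Htra1, Timp2 and Plau ended in 2, 5 and 4 of 6 omissions.

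Signalling genes behind the receptors counted 20 of 27 on the array. In Injured 4 hr 4 of 22 probes were lower than in Uninjured, where 14.3% of all probes passed: Gsk3a, a kinase restrained by Akt, at -1.80 ± 0.53, the adaptor Grb2 at -1.505 ± 0.31, the kinase Akt1 at -1.41 ± 0.36 and Mtor at -1.15 ± 0.34 (limma adjusted p between 0.00285 and 0.0265). In CKIN 3 of 22 fell, where 20% of all probes passed, namely Pik3cb by 1.28 ± 0.38, 1 of 4 probes of the receptor substrate Irs2 by 1.21 ± 0.38 and Mtor by 1.18 ± 0.35 (limma adjusted p between 0.0245 and 0.0301). The other Irs2 probes lay at -0.77, -0.22 and 0.80 and did not pass. In Acet 0 of 23 and in MP 0 of 22 passed, where 1.31% and 2.05% of all probes did. With 1 array left out, the calls of Gsk3a and Mtor ended in 4 and 5 of 6 omissions in the injury comparison, that of Akt1 in 1 of 6, and those of Pik3cb, Irs2 and Mtor in CKIN in 2 of 4, 5 of 6 and 4 of 6. List medians were -0.12 in Injured 4 hr against Uninjured, -0.54 in CKIN, -0.49 in Acet and -0.30 in MP, beside -0.04, -0.38, -0.21 and -0.27 over all probes. Of the growth hormone axis, which drives Igf1 in the liver, 15 of 15 genes were on the array. Of 2 probes of Pou1f1, a pituitary transcription factor, 1 rose by 1.65 ± 0.53 in Injured 4 hr against Uninjured (limma adjusted p = 0.044) and the other lay at 0.71 (adjusted p = 0.239), and somatostatin (Sst) fell by 1.89 ± 0.43 (adjusted p = 0.00551). Sst also fell in CKIN by 1.31 ± 0.43 (limma adjusted p = 0.0382), and 0 of 20 and 0 of 19 probes passed in Acet and MP (1.31% and 2.05% of all probes). In Indo 3 of 15 probes of this axis fell and 0 rose (13.3%), and in NS398 3 of 17 fell and 0 rose (22%). The Pou1f1 call ended in 4 of 6 omissions and the Sst call in CKIN in 5 of 6.

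In each comparison given here, most markers of meninges and fibroblasts, cells known to make Igfbp2, did not pass. In NS398 5 of 15 such probes rose and 0 fell, where 22% of all probes passed. In Injured 4 hr against its own PBS pool the counts were also 5 higher and 0 lower of 15, where 22.1% of all probes passed. The list median was 0.76 in NS398 and 0.12 in Injured 4 hr against its pool. Those that rose in NS398 were the matrix proteoglycan Dcn by 2.99 ± 0.35, the matrix protein Mgp by 2.85 ± 0.36, the prostaglandin D synthase Ptgds by 2.58 ± 0.54, and the collagens Col1a2 and Col1a1 by 1.73 ± 0.34 and 1.38 ± 0.24 (limma adjusted p between 8.33e-06 and 0.00178). In Acet 3 of 15 were lower than in Injured 4 hr, where 1.31% of all probes passed. These were Col1a2 at -2.44 ± 0.48, Mgp at -2.23 ± 0.51 and Col1a1 at -1.56 ± 0.33 (limma adjusted p between 0.0213 and 0.0376). Each of these calls ended when any compared array other than Acet replicate 2 was left out. The other Col1a1 probe did not pass, at 0.82 in NS398 (limma adjusted p = 0.14) and -0.49 in Acet against Injured 4 hr (adjusted p = 0.713). In CKIN 1 of 11 fell, Col1a2 by 2.29 ± 0.48 (limma adjusted p = 0.00565), and in MP 0 of 14 and in Injured 4 hr against Uninjured 0 of 15 passed. Of all probes 20%, 2.05% and 14.3% passed in these comparisons. The median of the list on single arrays was 0.46 to 1.03 in NS398 and -0.26 to -0.07 in Acet, against 0.14 to 0.38 in Injured 4 hr. Of blood markers 4 of 5 probes rose in NS398, with a list median of 1.20, and 3 of 5 in Injured 4 hr against its own pool, with a median of 2.08. Of all probes 22% and 22.1% passed there. Of astrocyte markers, 6 of 11 probes were lower in Injured 4 hr than in Uninjured, 4 of 11 lower in CKIN and 0 of 11 lower in Acet than in Injured 4 hr. Of all probes 14.3%, 20% and 1.31% passed in these comparisons. In NS398 2 of 11 astrocyte probes rose and 0 fell (22% of all probes passed), with a list median of 0.17. In Injured 4 hr against its own pool 6 of 11 were higher and 0 lower (22.1%), with a median of 0.92. The part of these cells in the Igfbp2 values was not tested.

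The probes with the most similar pattern were found by the root mean square difference of their 7 group means from those of the member, after each probe's mean over the groups was subtracted, among 2849 probes. For Igfbp2 they were S100a6, a calcium-binding protein, at 0.29, Pmp22, a myelin protein of peripheral nerve, at 0.34, Dcn at 0.36, Col1a2 at 0.43 and Rpl-1 at 0.50, beside a median of 1.11 over all probes. S100a6 averaged 2.66 in NS398 and -0.72 in Acet, against 1.10 in Injured 4 hr, and Pmp22 averaged 3.22 and -0.68, against 1.75. For Igfbp6 they were the adhesion protein Cntn6 at 0.31, the ribosomal protein Rpl38 and the calcium channel subunit Cacnb4 at 0.35, the interferon-induced Ifi27 at 0.37 and the neuronal adhesion protein Lsamp at 0.39, beside a median of 0.92. Cntn6 averaged -2.05 in Acet and -2.53 in CKIN, against -0.48 in Injured 4 hr. The 7 means share their arrays and pools, and the likeness is a description.

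**Figure D5:**
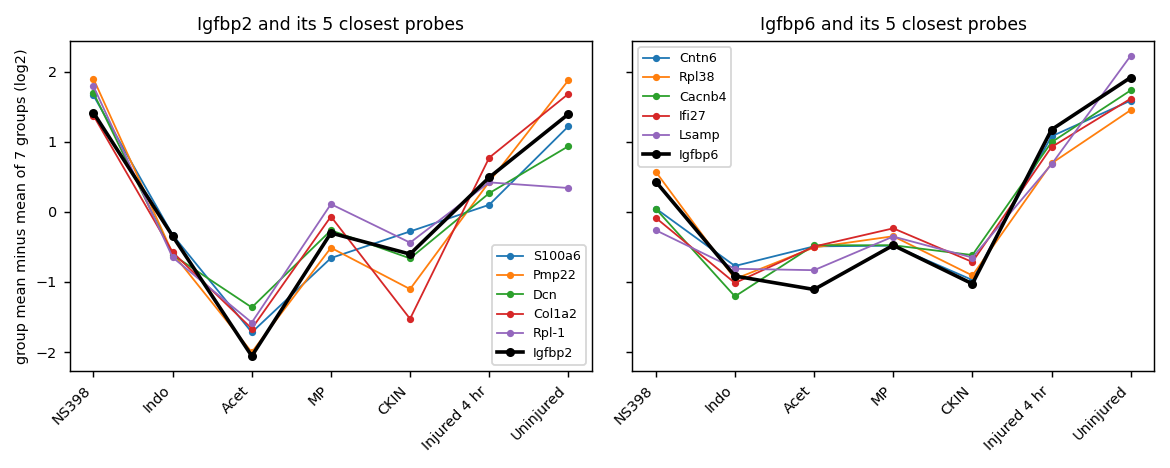
Group means less the mean of the 7 groups (y axis, log2) for Igfbp2 and Igfbp6 (black) and the 5 probes closest to each (colours), by group (x axis). The lines near Igfbp2 share the high NS398 and low Acet points, and those near Igfbp6 share the step between the treatments and the Injured 4 hr and Uninjured groups.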

How the data were processed

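Gene expression was measured in rat spinal cord on 2-colour arrays. The authors deposited, for each array, log2 ratios between a sample and a vehicle pool named in the labels. On the treatment arrays many values equal base-2 logs of small whole-number ratios, from which the base was taken. For the dyes, scanner, background correction and normalization, no source used here gives details, and blank cells were treated as missing. Symbols came from the platform annotation and were updated by gene identifier from RefSeq for 4367 of 4415 probes with 1 symbol. A further 545 probes with no gene and 2 with several symbols were tested but not named.

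Each array was centred on its median, and all 21 arrays entered 1 linear model per probe with a coefficient per group (limma 3.58.1, R 4.3.3). Testing required values on 2 or more of the 3 arrays in both groups. P-values were 2-sided and adjusted by Benjamini-Hochberg over all probes in each of 10 comparisons, at a threshold of 0.05. Acet, MP and CKIN were set against Injured 4 hr, on the assumption of 1 PBS pool. Indo and NS398 were tested against 0, which leaves out the spread of the pool. The number of arrays limits the precision.

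All Igfbp probes are named. Other genes are list members that passed among the PBS groups (up to 4 per list and comparison), the Igf ligands and receptors, called meningeal markers and the 5 nearest patterns. The members and lists were chosen with earlier results of these data known. Alternatives were other scalings (loess span 0.4), filters, covariates and omissions, and the code was tested on simulated data.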

Additional observations from a re-analysis of the deposited data

Results flagged for a closer look

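Igfbp2 lay above the array median on all 3 NS398 arrays and below it on all 3 Acet arrays, with means of 2.33 in NS398 and -1.15 in Acet, 3.47 apart. Igfbp3 did the same with means of 0.32 in NS398 and -1.12 in Acet, 1.44 apart. Its NS398 values began at 0.07, close to the array median, and did not pass against the pool (limma adjusted p = 0.416). The sign of Igfbp3 in NS398 turned in deposited ratios, after quantile normalization and on Gapdh. How many of all probes show such a split between treatments was not counted. The compounds were given in different vehicles and each was measured against its own pool, DMSO and PBS, so that compound, vehicle and pool cannot be told apart and the difference was not tested.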

How the results depend on the processing

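The count of Igfbp probes past the threshold moved with the setting. Percentages in brackets are the share of all probes called in the same setting. In deposited ratios it was 2 of 5 for Injured 4 hr against Uninjured (50.4%), 0 for Acet (71.2%) and 4 for NS398 (44.1%). It was 5 for Injured 4 hr against its pool (90.6%). On Gapdh, a scaling chosen after seeing the data, it was 2 for Injured 4 hr against Uninjured (60.7%). It was 0 for CKIN (1.98%), MP (0.0683%) and Acet (0.106%), and 3 for Indo (23.3%). NS398 (78.1%) and Injured 4 hr against its pool (91.3%) gave 5 there. Quantile normalization gave 1 for CKIN (16.5%) and MP (0.797%), 4 for Indo (64.6%) and 5 for NS398 (67.8%). It gave 3 for Injured 4 hr against its pool (72%). Scale normalization gave 2 in the last of these (30.8%) and 3 for Acet (10.7%). Loess and plate correction gave 0 for CKIN (0.749%), MP (0.934%) and Injured 4 hr against its pool (0%), and 1 for CKIN against Acet (0.456%). Fits of the compared groups alone gave 1 for Injured 4 hr against Uninjured (37.8%), 3 for CKIN (28.2%) and 0 for MP (0.547%). They gave 2 for NS398 (2.79%) and 2 for Injured 4 hr against its pool (42.1%). Averaging the probes of a gene gave 1 of 4 genes for CKIN (19.6%) and MP (1.95%) and 2 for NS398 (21.3%). Whether an array was sparse, as a covariate, gave 0 for CKIN (0.161%) and MP (0.752%) and 1 for MP against Acet (0.183%). Against the PBS pool, a contrast without Injured 4 hr, Acet gave 5 (30.2%) and MP 3 (31%). Values on all 3 arrays gave 1 of 4 for Indo (16.3%). Without its sparse array, a setting also chosen after seeing the data, Acet gave 1 (0.0619%). Omitting the 2 sparse MP arrays left too few for a count. With 1 array left out the counts ran from 1 to 2 in CKIN, 0 to 2 in MP, 0 to 3 in Acet, 1 to 2 in Indo, 2 to 3 in NS398 and 0 to 2 in Injured 4 hr against its pool, and stayed 0 in the other comparisons.

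Every sign change of an Igfbp probe, an Igf ligand or receptor probe or a list gene named with a call among the PBS groups is given here, whether or not the value passed the test. Called meningeal markers in NS398 are covered too, and the protease and Irs2 calls in Indo and NS398 are not. Values against the PBS pool are a different contrast, without Injured 4 hr. For Injured 4 hr minus Uninjured, in deposited ratios Igfbp2 was 0.62, Igfbp6 0.78, Igfbp5 probe 1 1.49, Igfbp5 probe 2 1.43, Grb2 0.021, Akt1 0.11, Igf2 probe 2 1.09 and Mtor 0.37, and after quantile normalization Igfbp2 was 0.11 and Igfbp6 0.003. After scale normalization Igfbp2 was 0.53 and Igfbp6 0.021, and after loess Igfbp2 was 0.15 and Igfbp6 0.069. On Gapdh Igfbp2 was 0.82, Igfbp6 0.98, Igfbp5 probe 1 1.69, Igfbp5 probe 2 1.62, Grb2 0.22, Akt1 0.31, Igf2 probe 2 1.28 and Mtor 0.57, and with the replicate block Igfbp3 was -0.001. For CKIN minus Injured 4 hr, in deposited ratios Igfbp2 was 0.79, Igfbp3 1.22, Igfbp5 probe 1 0.60, Igfbp5 probe 2 1.72, Plau 0.82, Htra1 0.55, Pik3cb 0.61, Irs2 0.72, Sst 0.61, Timp2 0.76, Igf1 0.33, Igf2 probe 2 1.34 and Mtor 0.75, and on Gapdh Igfbp2 was 0.028, Igfbp3 0.46, Igfbp5 probe 2 1.03, Plau 0.13, Irs2 0.025, Timp2 0.063, Igf2 probe 2 0.65 and Mtor 0.057. With sparse arrays as a covariate Igfbp2 was 0.27, and against the PBS pool Igfbp2 was 0.31, Htra1 0.023 and Igf1 0.23. After loess Igfbp3 was 0.098, Igfbp5 probe 2 0.39, Timp2 0.070 and Igf1 0.34. After quantile normalization Igf2 probe 2 was 0.14. For MP minus Injured 4 hr, in deposited ratios Igfbp2 was 1.19, Igfbp6 0.33, Igfbp3 1.76, Igfbp5 probe 1 0.19, Igfbp5 probe 2 0.82, Igf1 1.74 and Igf2 probe 2 1.30, and with sparse arrays as a covariate Igfbp2 was 0.12, Igfbp3 0.13 and Igf1 0.78. Against the PBS pool Igfbp2 was 0.61 and Igf1 1.58, and without the sparse MP arrays Igfbp2 was 0.54, Igfbp3 0.16, Igf2 probe 1 -0.038 and Igf1 0.91. After loess Igfbp3 was 0.20 and Igf1 0.72, and on Gapdh Igfbp3 was 0.44 and Igf1 0.42. After quantile normalization Igf1 was 0.17 and Igf2 probe 2 0.12. For Acet minus Injured 4 hr, in deposited ratios Igfbp3 was 0.61, Igfbp5 probe 1 0.57, Igfbp5 probe 2 0.62, Plau 0.48, Col1a1 0.37, Igf2r 1.53, Igf2 probe 1 1.05, Igf1 1.34 and Igf2 probe 2 1.65, and after loess Igf2r was 0.021 and Igf1 0.28. On Gapdh Igf2r was 0.31, Igf1 0.12 and Igf2 probe 2 0.42, and against the PBS pool Igf1 was 1.24. After quantile normalization Igf2 probe 2 was 0.47. For Indo against the ethanol pool, after quantile normalization Igfbp2 was -0.15 and Igf1 -0.99, and on Gapdh Igfbp2 was -0.12 and Igf1 -0.64. After loess Igfbp3 was 0.28 and Igf2 probe 1 0.17, and in deposited ratios Igf1 was -0.007. For NS398 against the DMSO pool, in deposited ratios Igfbp3 was -0.57. After quantile normalization Igfbp3 was -0.72, and on Gapdh Igfbp3 was -1.04 and Igf1 -0.23. After loess Igf2 probe 1 was 0.37. For Injured 4 hr against the PBS pool, in deposited ratios Igfbp2 was -0.80, Igfbp6 -1.62, Igfbp3 -2.002 and Igfbp5 probe 2 -2.12, and after loess Igfbp2 was -0.016, Igfbp5 probe 1 0.008 and Igfbp5 probe 2 -0.002. On Gapdh Igfbp2 was -0.76, Igfbp6 -1.58, Igfbp3 -1.96 and Igfbp5 probe 2 -2.08, and after quantile normalization Igfbp6 was -0.51, Igfbp3 -0.84 and Igfbp5 probe 2 -1.04. For CKIN minus Acet, after scale normalization Igfbp6 was -0.11 and Igfbp5 probe 1 -0.098. After quantile normalization Igfbp5 probe 1 was -0.028, and after loess Igfbp5 probe 1 was -0.005. For CKIN minus MP, after loess Igfbp2 was 0.18, and on Gapdh Igfbp2 was 0.16, Igfbp6 0.020 and Igfbp3 0.015. With sparse arrays as a covariate Igfbp2 was 0.15. With 1 array left out, the following ranges held both signs: Igfbp5 probe 1 between -0.21 and 0.15 and Igfbp5 probe 2 between -0.32 and 0.053 for Injured 4 hr minus Uninjured, Igfbp5 probe 2 between -0.44 and 0.014 for CKIN minus Injured 4 hr, Igfbp6 between -0.44 and 0.069 for NS398 against the DMSO pool, Igfbp5 probe 2 between -0.14 and 0.23 for Injured 4 hr against the PBS pool, Igfbp6 between -0.007 and 0.15 and Igfbp5 probe 1 between -0.45 and 0.34 for CKIN minus Acet. The same held for Igfbp5 probe 2 between -0.21 and 0.44 for MP minus Acet, Igfbp2 between -0.88 and 0.36 for CKIN minus MP, Igf1 between -0.82 and 0.14 for MP minus Injured 4 hr, and Igf1 between -0.11 and 0.13 for Indo against the ethanol pool. The deposited and Gapdh scalings shift the median of all probes, and other causes were not tested.

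Apart from omissions of 1 array, the share of all probes called ran from 0.415% to 60.7% for Injured 4 hr against Uninjured (14.3% with centred arrays), 0.161% to 59.7% for CKIN (20%), 0.0683% to 72.2% for MP (2.05%), 0.0619% to 71.2% for Acet (1.31%), 7.6% to 64.6% for Indo (13.3%), 2.79% to 78.1% for NS398 (22%) and 0% to 91.3% for Injured 4 hr against its pool (22.1%). With 1 array left out it ran from 7.58% to 11.7% for Injured 4 hr against Uninjured, 5.55% to 20.4% for CKIN, 0.0693% to 16.4% for MP, 0% to 3.11% for Acet, 9.19% to 12.1% for Indo, 14% to 22.7% for NS398 and 16.3% to 17.5% for Injured 4 hr against its pool. Replicate numbers were not treated as pairs in the main model: same-numbered deviations correlated between -0.23 and 0.60, and in no comparison did every pair exceed 0.1. In MP against Acet and in CKIN against MP, however, 2 of 3 pairs did. Whether same-numbered arrays shared an animal or a run was not tested. With the replicate number as a block, 3 of 5 Igfbp probes passed in Acet (1.82% of all probes) and 3 in NS398 (22.5%). In CKIN (21%), MP (2.76%) and Indo (13.8%) 2 passed, and 1 in Injured 4 hr against its pool (22%). Elsewhere 0 passed: Injured 4 hr against Uninjured (14.7%), CKIN against Acet (0.16%), MP against Acet (0.0228%) and CKIN against MP (0%). Spot intensities are not given, so signal over background is unknown.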
